A study of Mus musculus with 6 samples.

Results

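Box C/D-sized small nucleolar RNAs (snoRNAs) that lie outside the large snoRNA clusters were examined in exosomes of mouse P19 cells. A member is a transcript that GENCODE mouse release M21 (GRCm38) types as snoRNA, that is at most 110 bases long and that has at least 15 counts summed over the 6 libraries. Members inside 4 regions were left out: the imprinted Snhg14 locus (chr7:59200000-60200000), the imprinted Meg3-Rian-Mirg locus (chr12:109500000-109760000), Gas5 (chr1:161034000-161039000) and Snhg1 (chr19:8722500-8727500). This gave 126 members among the 5880 transcripts of the deposited table and among the 1286 that were tested. Of the 140 snoRNAs of that length listed outside the regions, 14 had fewer counts. Members were chosen by measured values, the counts summed over both groups, so that presence of a member in the libraries is not a result. The UD-P19 group consists of exosomes of undifferentiated P19 cells, an embryonal carcinoma line, conditioned for 24 h in α-MEM with N2 supplement (replicates 1 to 3). The P19N group consists of exosomes of neurons made from the same line with retinoic acid for 4 days and kept in neurobasal medium with B27 and N2 (replicates 4, 5 and 6, whose cultures were 8, 10 and 12 days old). P19N cultures also received 5-fluorouridine with uridine, which acts against dividing cells. Per the study it was given on days 3 and 8, on day 8 once the medium had been taken. The 8-day culture thus had only the exposure of day 3 before collection. Neither group was exposed to a test drug per the labels. Culture age, replicate and the exposure of day 8 cannot be told apart in P19N. Whether the P19N samples were taken in turn from the same flasks is not given. Medium, supplement, 5-fluorouridine and cell state cannot be told apart between the groups.

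Box C/D snoRNAs are short nuclear RNAs that carry a C box (TGATGA) near their 5′ end and a D box (CTGA) near their 3′ end. Most are cut out of introns of host genes, many of which encode ribosomal proteins or nucleolar proteins, and they are bound by fibrillarin, Nop56, Nop58 and Snu13. The bases just upstream of a D box, or of an internal copy of it called D′, pair with a target RNA, and fibrillarin then adds a methyl group to the ribose of the target base that faces the 5th base before the box. The usual targets are 18S, 28S and 5.8S ribosomal RNA and the U6 spliceosomal RNA. These RNAs act in the nucleolus, and exosomes are small vesicles that cells release.

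The annotated sequences of 6 members on which the comparison turns are shown first, with the C box and the D box in capitals, as read 5′ to 3′ from the GENCODE M21 transcripts (GRCm38). Snord89 (chr1:39548745-39548854, minus strand) and Gm23969 (chr2:26911261-26911334, plus strand) were higher in P19N. Gm22879 (chr2:26912218-26912291, plus strand) and Gm24134 (chr2:26912530-26912600, plus strand) were lower and lie in the same host as Gm23969. Gm22455 (chr9:64177123-64177193, plus strand) was lower, and Gm22571 (chr9:64175873-64175942, plus strand), its closest relative, was not called.
Snord89: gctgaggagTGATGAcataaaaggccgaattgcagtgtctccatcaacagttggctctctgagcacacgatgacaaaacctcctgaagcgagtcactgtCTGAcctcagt
Gm23969: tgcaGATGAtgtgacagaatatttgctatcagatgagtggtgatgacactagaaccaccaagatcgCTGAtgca
Gm22879: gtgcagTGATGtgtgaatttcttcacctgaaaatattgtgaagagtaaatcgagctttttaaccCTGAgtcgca
Gm24134: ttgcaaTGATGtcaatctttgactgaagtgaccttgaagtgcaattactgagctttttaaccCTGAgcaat
Gm22455: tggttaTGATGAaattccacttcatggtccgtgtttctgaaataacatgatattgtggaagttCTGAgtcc
Gm22571: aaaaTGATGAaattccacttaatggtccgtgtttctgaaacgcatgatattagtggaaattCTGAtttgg

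The members had the sequence layout of box C/D snoRNAs. A C box core, TGATG or GATGA within the first 30 bases, was found in 124 of 126 members, and CTGA within the last 25 bases in 125. Both were found in 123 members (97.6%), in 142 of the 147 tested short snoRNAs of the left-out regions (96.6%) and in 11 of the 152 tested snoRNAs over 110 bases (7.24%). The full C box TGATGA was found in 80 members (63.5%), and in 140 of the 147 short snoRNAs of the left-out regions (95.2%). Motifs were searched on the transcript strand, and the search for TGATG and GATGA counts an overlap of both as 1 C box. Members were 63 to 110 bases long with a median of 76.

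The bases before D or D′ boxes were then searched for pairing with 18S ribosomal RNA, read as the reverse complement of the annotated copy at chr17:39846353-39848201 (GRCm38), which is 1849 bases long and annotated on the opposite strand. A run of at least 10 unbroken Watson-Crick pairs that included the 5th base before a CTGA was found in 35 of 126 members (27.8%), in 3 of 147 short snoRNAs of the left-out regions (2.04%) and in 3 of 152 snoRNAs over 110 bases (1.97%). It was found in 18 of the 24 members listed as 18S guides by the number of their human namesake and in 0 of the 24 listed as 28S guides. A match is a description of the letters and no proof of methylation. Positions are counted from 1 at the 5′ end of the 18S sequence as read here. The 35 members faced 22 positions, of which 11 were shared by more than 1 member, and 24 members faced a shared position. In the following sequences the paired stretch is in capitals. Gm22879 and Gm24134 of Rpl7a faced position 675, Snord70 (chr1:59691934-59692020, plus strand) and Gm26293 (chr1:59692509-59692592, plus strand) of Nop58 faced position 519, and Mir677 (chr10:128085289-128085360, plus strand) and Snord59a (chr10:128084143-128084216, plus strand) of Atp5b faced position 1038. Snord19 (chr14:31016206-31016281, minus strand) and Gm24916 (chr14:31015148-31015226, minus strand) of Gnl3 faced position 690. Snord82 (chr1:86356261-86356330, minus strand) and Gm24148 (chr1:86352008-86352087, minus strand) share the host Ncl and faced different positions, 1685 and 1784.
Gm22879: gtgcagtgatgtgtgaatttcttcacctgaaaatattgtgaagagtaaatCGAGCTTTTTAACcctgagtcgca
Gm24134: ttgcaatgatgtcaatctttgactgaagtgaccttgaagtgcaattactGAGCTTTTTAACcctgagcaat
Snord70: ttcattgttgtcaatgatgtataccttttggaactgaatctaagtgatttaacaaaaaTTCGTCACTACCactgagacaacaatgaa
Gm26293: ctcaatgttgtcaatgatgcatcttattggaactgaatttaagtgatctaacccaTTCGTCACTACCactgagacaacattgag
Mir677: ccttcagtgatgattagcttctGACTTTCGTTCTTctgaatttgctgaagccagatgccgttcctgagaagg
Snord59a: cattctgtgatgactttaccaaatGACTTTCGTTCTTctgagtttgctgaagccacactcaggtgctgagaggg
Snord19: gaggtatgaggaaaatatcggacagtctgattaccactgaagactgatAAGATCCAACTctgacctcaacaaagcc
Gm24916: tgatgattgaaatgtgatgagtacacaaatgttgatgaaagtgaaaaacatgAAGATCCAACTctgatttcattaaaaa
Snord82: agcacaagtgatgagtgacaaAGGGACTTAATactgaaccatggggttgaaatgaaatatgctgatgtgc
Gm24148: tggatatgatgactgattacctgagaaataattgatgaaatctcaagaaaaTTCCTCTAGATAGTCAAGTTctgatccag

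Small RNA was sequenced from 1 library per replicate, and the deposited values are counts of reads per transcript with no normalization. The total of counts per library was between 454499 and 887460, and 2 members had a count of 0 in a library. Levels are given as CPM, counts per 1000000 of the library size scaled with edgeR's TMM method. In RNA of a whole exosome preparation, fewer vesicles or cells that carry a snoRNA and less of it in each cannot be told apart. Markers of the source cells were sparse: the neuronal list of 12 genes held 3, 82 and 16 counts in UD-P19 replicates 1 to 3 and 110, 89 and 44 in P19N replicates 4 to 6, Mir124a-1 and Mir124a-2 were not counted, and 0 tested transcripts of the list were called (quasi-likelihood test of edgeR). The pluripotency list of 15 genes held 21 counts in all, and the lists of muscle and of blood or liver microRNAs held 0. Of the neuronal list, Rmst had 0, 1 and 1 counts in UD-P19 and 20, 11 and 4 in P19N over its transcripts, and Mir9-1, Mir9-2 and Mir9-3 together had 0 in each UD-P19 library and 4, 0 and 3 in P19N. Meg3 had 2, 65 and 5 counts against 58, 42 and 27, with overlapping groups. These counts run with the labels at Rmst but are few, and their part in the results was not tested.

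The members took 4.18%, 2.56% and 3.86% of the counts of UD-P19 replicates 1, 2 and 3, and 2.86%, 2.68% and 3.90% of those of P19N replicates 4, 5 and 6. The groups overlapped, with means of 3.53% ± 0.857 and 3.15% ± 0.658 (SD, n = 3 each). Among counts deposited as unique, which were read as reads that match 1 transcript only, the share was 4.26% ± 0.677 in UD-P19 and 7.52% ± 0.781 in P19N (SD, n = 3 each). With the transcript Gm42418 taken out of the total, it was 8.94% ± 3.42 in UD-P19 and 3.80% ± 0.843 in P19N (SD, n = 3 each). The direction of the share thus differed with the reads that were counted. UD-P19 replicate 2 stood apart from the other libraries of its group, with the lowest CPM of the group at 96 of 126 members. The median CPM of a member was 121 in it, while it was 206 in replicate 1 and 223 in replicate 3 of UD-P19, and 139, 101 and 147 in P19N replicates 4, 5 and 6. Its part in each call was measured by leaving it out.

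**Figure D1:**
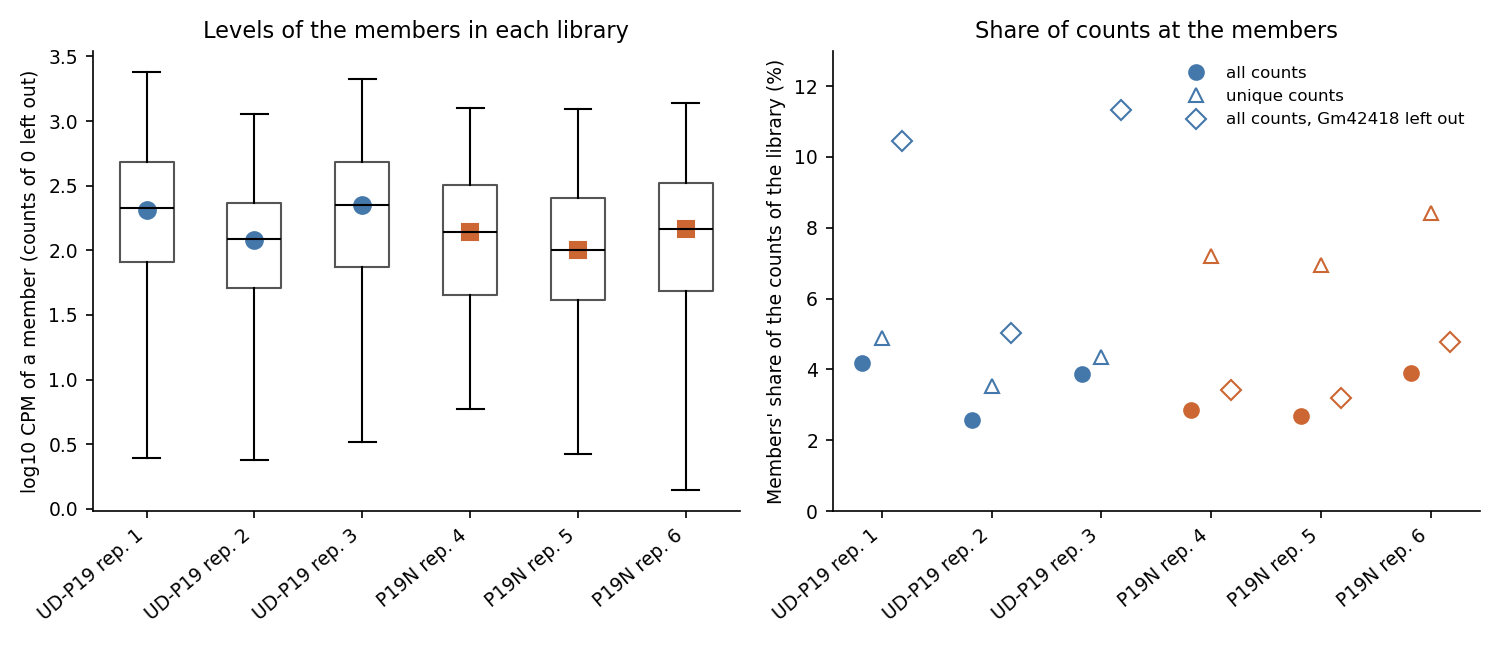
Left, log10 CPM of the 126 members in each library (box, quartiles; whiskers, range; coloured symbol, median over all members, UD-P19 circles and P19N squares); right, the members' share of the counts of each library in percent, for all counts, unique counts and all counts without Gm42418. UD-P19 replicate 2 lies below the other UD-P19 libraries at the left, and the open diamonds and triangles show opposite orders of the groups at the right.

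The comparison of the groups asks which of these snoRNAs differ between exosomes of P19 neurons and of undifferentiated cells. Of the 126 members, 3 were higher in P19N, 21 were lower and 102 were not called (quasi-likelihood test of edgeR, Benjamini-Hochberg adjusted p of at most 0.05 over the 1286 transcripts tested). Among all transcripts tested, 24.0% were called, 15% higher and 9.02% lower, beside 2.38% and 16.7% of the members. The groups did not overlap at 15 members with higher CPM in P19N and at 29 with lower CPM, while 25.2% and 16.8% of all transcripts tested did so. The median log2 fold change, P19N over UD-P19, was -0.46 over the members and 0.21 over all transcripts tested, and 86 members had a negative value. In the left-out regions 59 short snoRNAs were higher and 6 lower of 147, with a median log2 fold change of 1.24. With near-identical copies joined as described below, these 147 fall in 25 families and the 126 members in 111. Of the 152 snoRNAs over 110 bases, 13 were higher and 21 lower, with a median of -0.24. The difference between these lists was not tested. Scaled by TMM over the members alone, an alternative chosen after seeing the data, 6 members were higher and 15 lower, beside 13.5% and 5.75% of all transcripts tested. Without UD-P19 replicate 2, 6 were higher and 49 lower, beside 25.7% and 15.6% of all, and 28 of the 49 had not been called with all libraries. Without P19N replicate 5, 1 was higher and 6 were lower (9.41% and 4.04% of all), without P19N replicate 4, 1 was higher and 9 lower (10.8% and 4.82%), and without P19N replicate 6, 1 was higher and 24 lower (11.4% and 10.6%). Without UD-P19 replicate 1 or replicate 3, 2 were higher and 13 lower, beside 12.5% and 7.93% of all for replicate 1 and 10.1% and 12.2% for replicate 3.

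**Figure D2:**
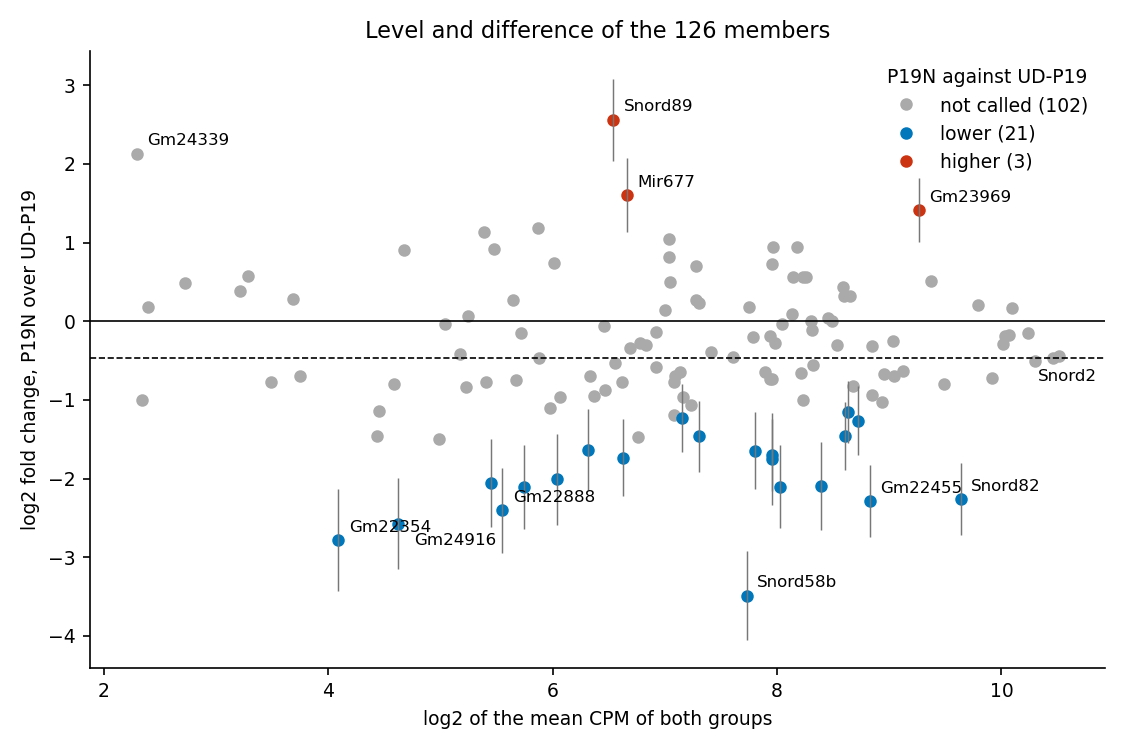
Log2 fold change of each of the 126 members (vertical axis, P19N over UD-P19) against the log2 of the mean CPM of both groups; red, called higher (3); blue, called lower (21); grey, not called (102); bars, standard error of the called members; dashed line, median of the members (-0.46). Called members are found from low to high levels, and the most counted members lie among those not called.

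Snord89, Mir677 and Gm23969 were the members higher in P19N. Snord89, a snoRNA with no known target that lies in an intron of the noncoding gene Gm15832, had 27.0, 17.8 and 36.4 CPM in UD-P19 replicates 1 to 3 and 170, 206 and 102 CPM in P19N replicates 4 to 6. All 3 P19N libraries lay above all UD-P19 libraries. The log2 fold change was 2.56 with a standard error of 0.52 (edgeR, adjusted p = 0.0021), and the call held with each library left out in turn.

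Gm23969, in an intron of Rpl7a, which encodes a protein of the large ribosomal subunit, had 314, 225 and 468 CPM in UD-P19 and 747, 891 and 1044 CPM in P19N. The groups did not overlap. The log2 fold change was 1.41 with a standard error of 0.40 (edgeR, adjusted p = 0.0171). The call was lost without UD-P19 replicate 1 or any 1 of the P19N replicates, with log2 fold changes between 0.97 and 1.57 and an adjusted p of up to 0.121.

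Mir677, in an intron of Atp5b, the gene of the beta subunit of mitochondrial ATP synthase, had 61.4, 32.0 and 57.9 CPM in UD-P19 and 154, 164 and 138 CPM in P19N. The groups did not overlap, and the log2 fold change was 1.60 with a standard error of 0.47 (edgeR, adjusted p = 0.0197). The call was lost without UD-P19 replicate 3 or any 1 of the P19N replicates, with an adjusted p of up to 0.104. The same stretch is also listed as a microRNA hairpin at chr10:128085286-128085363, and none of the 441 counts of the snoRNA entry was unique. The hairpin entry likewise held 441 counts, 27, 30 and 32 in UD-P19 and 125, 128 and 99 in P19N, with a log2 fold change of 1.57 and a standard error of 0.47 (edgeR, adjusted p = 0.021). Of the counts of the hairpin entry 4 were unique, so that nearly all counts of the 2 entries cannot be told apart. RefSeq places 2 mature microRNAs inside the snoRNA entry (GRCm38.p6), shown with their seed, bases 2 to 8, in capitals. They begin at bases 3 and 47 of the snoRNA.
mmu-miR-677-5p: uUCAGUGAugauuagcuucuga
mmu-miR-677-3p: gAAGCCAGaugccguuccugagaagg

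Among the 21 lower members, 6 stayed called with each library left out in turn: Snord58b, Gm22354, Gm24916, Gm22888, Gm22455 and Snord82. Snord58b, in an intron of Rpl17, a gene of the large ribosomal subunit, had 494, 158 and 520 CPM in UD-P19 and 36.5, 18.5 and 48.8 CPM in P19N. The lowest UD-P19 library, replicate 2, was still above all P19N libraries. The log2 fold change was -3.49 with a standard error of 0.56 (edgeR, adjusted p = 0.000346). With a library left out it was between -4.12, without P19N replicate 6, and -3.19.

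Snord82, which is listed as an 18S guide and lies in an intron of the nucleolin gene Ncl, had 1884, 577 and 1488 CPM in UD-P19 and 277, 218 and 328 CPM in P19N. The groups did not overlap, and the log2 fold change was -2.26 with a standard error of 0.46 (edgeR, adjusted p = 0.00202). Gm22455 of Rpl4, another gene of the large ribosomal subunit, had 864, 364 and 1034 CPM in UD-P19 and 153, 127 and 183 CPM in P19N. All UD-P19 libraries lay above all P19N libraries here too, with a log2 fold change of -2.29 and a standard error of 0.46 (edgeR, adjusted p = 0.00188). Summed with Gm22571, a relative in the same host, its log2 fold change was -1.29 (edgeR, adjusted p = 0.0268).

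Gm24916, in the nucleostemin gene Gnl3, had 44.2, 34.4 and 48.0 CPM in UD-P19 and 7.07, 3.97 and 9.77 CPM in P19N. Gm22888, in an intron of Ubap2, had 90.9, 64.0 and 82.7 CPM in UD-P19 and 22.4, 11.9 and 9.77 CPM in P19N. Both were low in P19N and separated the groups, and UD-P19 replicate 2 stood closer to the other UD-P19 libraries than at Snord82. Their log2 fold changes were -2.57 and -2.40 with standard errors of 0.58 and 0.54 (edgeR, adjusted p = 0.00415 for each). Without P19N replicate 6 that of Gm24916 was -3.19.

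The other 15 lower calls were lost with at least 1 library left out, while their log2 fold changes stayed negative. Gm26293 of Nop58, a gene for a core protein of box C/D particles, had 101, 49.8 and 111 CPM in UD-P19 and 17.7, 14.5 and 27.9 CPM in P19N. Gm24016 of Rps20 had 81.0, 62.8 and 67.8 CPM in UD-P19 and 18.8, 6.61 and 25.1 CPM in P19N. The groups did not overlap at either, the log2 fold changes were -2.11 and -2.05 (edgeR, adjusted p = 0.00928 and 0.0134), and neither call held when P19N replicate 4 or 5 was left out, with an adjusted p of up to 0.0735 and 0.104. With a library left out, the log2 fold change was between -2.72 and -1.92 at Gm26293 and between -2.75 and -1.67 at Gm24016, the most negative without P19N replicate 6 at both.

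Gm22879 of Rpl7a had 629, 137 and 505 CPM in UD-P19 and 115, 68.8 and 110 CPM in P19N, so that UD-P19 replicate 2 was only just above P19N replicate 4. Its log2 fold change was -2.10 with a standard error of 0.53 (edgeR, adjusted p = 0.00872), and the call was lost without P19N replicate 5 (adjusted p = 0.0619). Snord35a of Rpl13a, listed as a 28S guide, had 138, 35.5 and 144 CPM in UD-P19 and 25.9, 19.8 and 32.1 CPM in P19N. The values of UD-P19 replicate 2 and P19N replicate 6 were close. Its log2 fold change was -2.01 with a standard error of 0.58 (edgeR, adjusted p = 0.0183), and the call was lost without UD-P19 replicate 3, P19N replicate 4 or P19N replicate 5.

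Both members in Tsr1, a gene for a factor of small subunit assembly, were lower. Gm22771 had 128, 113 and 217 CPM in UD-P19 and 40.1, 34.4 and 62.8 CPM in P19N, with no overlap. Snord91a had 614, 150 and 869 CPM in UD-P19 and 104, 96.5 and 181 CPM in P19N, and P19N replicate 6 lay above UD-P19 replicate 2. Their log2 fold changes were -1.73 and -2.09 (edgeR, adjusted p = 0.0167 and 0.0113), and each call was lost without UD-P19 replicate 3, P19N replicate 4 or P19N replicate 5. Snord70 of Nop58 was the other called member whose groups overlapped, with 594, 91.2 and 465 CPM in UD-P19 and 89.5, 78.0 and 172 CPM in P19N and a log2 fold change of -1.76. Without P19N replicate 6 the log2 fold changes were -2.35 at Gm22771, -2.75 at Snord91a and -2.48 at Snord70.

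The remaining lower members had log2 fold changes between -1.70 (Snord72 of Rpl37) and -1.16 (Gm24299 of Taf1d). They were Snord72, Snord60, Snord1a, Snord87, Gm26202, Gm24134, Gm23650 and Gm24299, and their groups did not overlap. Snord72 lost its call without P19N replicate 5 alone, and the other 7 and Snord70 lost it without each of P19N replicates 4 and 5 and at least 1 of UD-P19 replicates 1 and 3. No call of a lower member was lost without UD-P19 replicate 2 or P19N replicate 6, and without the latter the log2 fold change of Snord87 was -2.14 in place of -1.46. With all libraries kept, 6 of the 24 calls also depended on other settings: Gm23650 lost its call in 7 alternatives, Gm24134 in 6, Gm24299 and Snord70 in 5 each, and Snord1a and Snord87 in 3 each. Adjusted p-values (edgeR) in these fits were between 0.0515 and 0.14, and the log2 fold changes stayed negative, between -1.60 and -0.85.

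**Figure D3:**
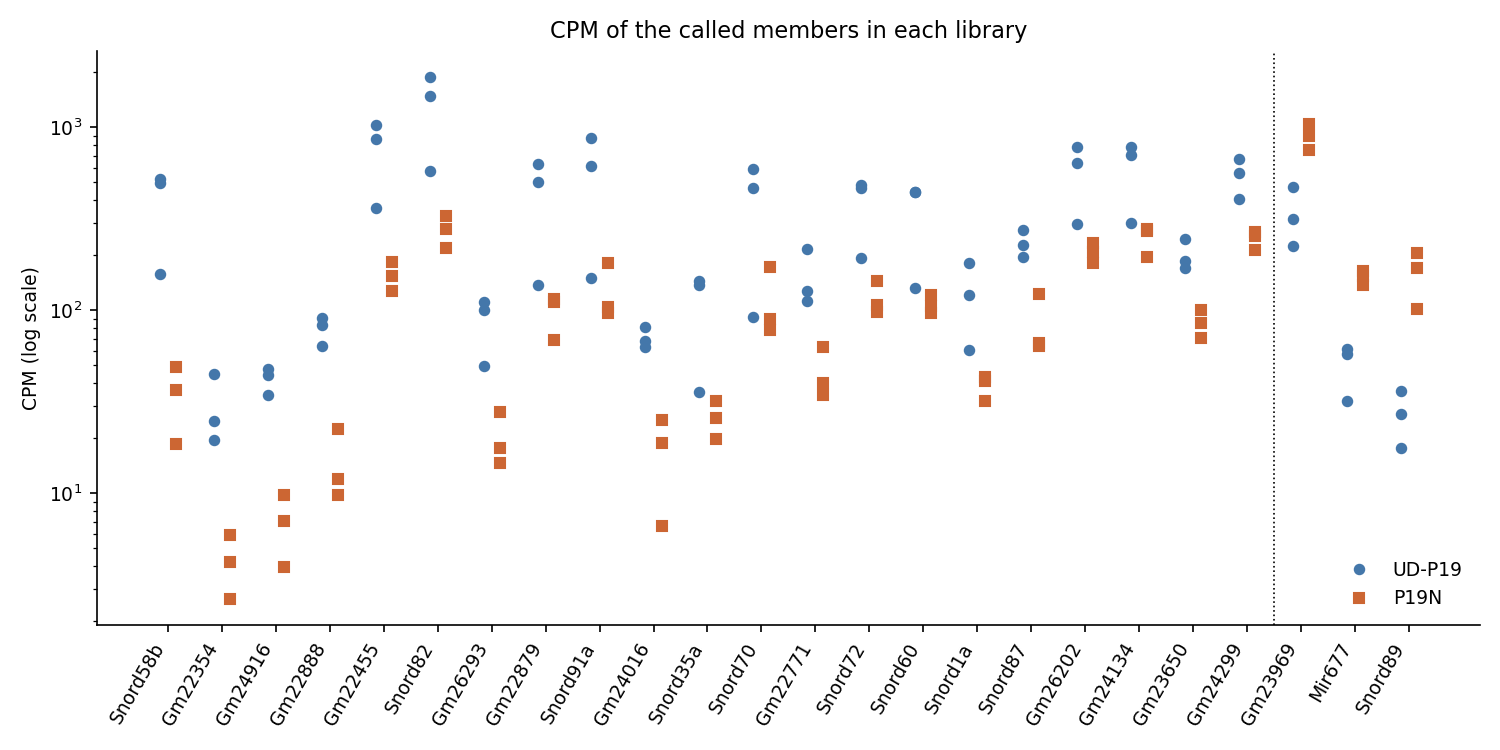
CPM of the 24 called members in each library on a log scale, ordered by log2 fold change; circles, UD-P19 replicates 1 to 3; squares, P19N replicates 4 to 6; dotted line, lower members at its left and higher members at its right. The groups overlap at Snord91a and Snord70, where the lowest circle, UD-P19 replicate 2, lies below the highest square, P19N replicate 6.

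By role, 0 of the 24 listed 18S guides were higher and 2 were lower (Snord82 and Snord70), with a median log2 fold change of -0.57. With all libraries, the lower ones are 8.33% of this list, near the 9.02% of all transcripts tested that were called lower. Without UD-P19 replicate 2, Snord33, Snord42b, Snord45b, Snord45c, Snord65 and Snord93 were also called lower and Snord100 higher. In that fit 15.6% of all transcripts tested were lower and 25.7% higher. Snord45b (log2 fold change -1.47, edgeR, adjusted p = 0.0558 with all libraries) was called lower in 9 alternatives. Of the 24 listed 28S guides, 0 were higher and 4 were lower (Snord35a, Snord72, Snord60 and Snord1a), or 16.7%, with a median of -0.55. None of the 809 counts of Snord60 was unique. Without UD-P19 replicate 2, Snord21, Snord34, Snord35b, Snord37, Snord38a, Snord49a, Snord49b and Snord111 were also called lower. The lists come from the number in the symbol and the known target of the human namesake. They do not cover every number, so that the counts per role hold for the listed members only. In no list are 70 members, most with a Gm symbol but also the lower Snord58b, Snord87 and Snord91a. Of the 70, 2 were higher and 15 lower (21.4%), with a median of -0.46. Lower calls were added among them too without UD-P19 replicate 2, Gm23136 and Gm23344 included, and Gm22193 and Gm26247 were added as higher. Of the 3 members listed as having no known target, Snord89 was higher, while Snord83b and Snord23 had log2 fold changes of 0.51 and 0.90 (edgeR, adjusted p = 0.342 and 0.213).

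The guides of other targets were not called. Snord13, which guides acetylation of 18S ribosomal RNA rather than methylation, had 228, 86.5 and 199 CPM in UD-P19 and 123, 84.6 and 92.1 CPM in P19N (log2 fold change -0.77, edgeR, adjusted p = 0.236), and was called lower without UD-P19 replicate 2 (edgeR, adjusted p = 0.0111). Snord71 and Snord96a, guides of 5.8S ribosomal RNA, had log2 fold changes of -0.42 and -0.69 (edgeR, adjusted p = 0.581 and 0.394), and Snord96a had 205 CPM in UD-P19 replicate 2 against 49.1 and 43.0 CPM in replicates 1 and 3. Snord7 and Snord8, guides of U6, had 24 and 130 counts in all and log2 fold changes of 0.19 and -0.04 with standard errors of 0.92 and 0.54 (edgeR, adjusted p = 0.896 and 0.964). The part of depth in this was not tested.

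Called members were found with and without pairing to 18S. Of the 35 members with a paired run, 1 was higher and 7 lower, with a median log2 fold change of -0.69, and of the 91 without, 2 were higher and 14 lower, with a median of -0.35. Of the 80 members with the full C box TGATGA, 2 were higher and 7 lower (median -0.29), and of the 46 without it, 1 was higher and 14 lower (median -0.74). Over all transcripts tested, 15% were called higher and 9.02% lower. These splits were counted with all libraries, while 49 members were lower without UD-P19 replicate 2, and they were not tested. Members that face the same 18S position were not always called alike: Mir677 was higher, while Snord59a, with the same 13 paired bases, had a log2 fold change of -0.04. Gm24916 was lower, while Snord19, with the same 11 paired bases, was not called and had a log2 fold change of -0.96 (edgeR, adjusted p = 0.145). Snord19 had 101, 87.7 and 77.8 CPM in UD-P19 and 61.3, 38.4 and 36.3 CPM in P19N, so that its groups did not overlap either, and it was called lower in DESeq2 (adjusted p = 0.0425). The differences within these pairs were not tested. Both members facing position 519 were lower, as were both facing position 675. In the fit of unique counts Snord70 and Gm24134 were not called (edgeR, adjusted p = 0.0784 and 0.0523). All counts of Snord70 and Gm24134 were unique, so that only the other transcripts and the scaling differed in that fit. At position 469, the relatives Snord14a, Snord14c, Snord14d and Snord14e had log2 fold changes of 1.18, -0.56, -0.28 and 0.70 and were not called. With filterByExpr, a stricter filter on low counts, Snord14a was called higher (edgeR, log2 fold change 1.35, adjusted p = 0.0404).

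The annotation places 98 members in protein-coding genes, 34 of them in ribosomal protein genes, 23 in noncoding genes and 5 in no gene. Of the 34 members in ribosomal protein genes, 1 was higher and 8 were lower (23.5%), with a median log2 fold change of -0.73. Of the 64 in other protein-coding genes, 1 was higher and 9 lower (14.1%), with a median of -0.30, and of the 23 in noncoding genes, 1 was higher and 3 lower (13%), with a median of -0.47. These counts stand beside 15% higher and 9.02% lower of all transcripts tested, and the host classes were not tested against each other. Without UD-P19 replicate 2, lower calls were added in each of these classes, beside 15.6% lower of all. In ribosomal protein genes they were Gm23130, Gm23136, Gm23301, Gm23344, Rnu73b, Snord21, Snord33, Snord34, Snord35b, Snord38a and Snord42b, while Snord100 was added as higher. In all, 62 members lie in introns of every annotated model of their host, and 59 overlap an exon of at least 1 model. The 65 hosts include 32 with more than 1 member, which hold 88 members, and in 14 of these the log2 fold changes had both signs. The range of log2 fold changes within such a host had a median of 1.07, and the standard deviation over all members was 0.99.

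Rpl7a held members that were called in both directions, Gm23969 higher and Gm22879 and Gm24134 lower. Gm24134 had 781, 300 and 707 CPM in UD-P19 and 271, 196 and 276 CPM in P19N (log2 fold change -1.26, edgeR, adjusted p = 0.0453). The ratio of counts of Gm23969 to Gm22879 was 0.50, 1.64 and 0.93 in UD-P19 and 6.47, 12.96 and 9.47 in P19N, and that of Gm23969 to Gm24134 was 0.40, 0.75 and 0.66 against 2.76, 4.55 and 3.78. Neither ratio overlapped between the groups. A ratio within a library is free of its scaling, and UD-P19 replicate 2 was the highest of its group in both ratios.

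In Ncl, Snord82 was lower, while Gm24148 had 1820, 402 and 1114 CPM in UD-P19 and 950, 734 and 1243 CPM in P19N (log2 fold change -0.19, edgeR, adjusted p = 0.8). The groups overlapped at Gm24148, and its counts over those of Snord82 were 0.97, 0.70 and 0.75 in UD-P19 and 3.43, 3.36 and 3.79 in P19N. None of the counts of Gm24148 was unique.

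Rpl4 held 5 members, more than any other host. Gm22455 was lower, and the other 4 were not called. Gm23344 had 1112, 488 and 1134 CPM in UD-P19 and 464, 471 and 632 CPM in P19N (log2 fold change -0.80, edgeR, adjusted p = 0.157). Gm22571, which shares 90.5% identity with Gm22455 over 63 aligned bases, had 285, 168 and 256 CPM in UD-P19 and 199, 183 and 234 CPM in P19N. Its groups overlapped, and the log2 fold change was -0.20 (edgeR, adjusted p = 0.749). Snord16a, listed as an 18S guide, and Gm23136, 88.9% identical to it, had log2 fold changes of 0.14 and -1.07 (edgeR, adjusted p = 0.837 and 0.157). Without UD-P19 replicate 2, Gm23344 and Gm23136 were called lower (edgeR, adjusted p = 0.00477 and 0.00155). The ratio of counts of Gm23344 to Gm22455 was 1.29, 1.34 and 1.10 in UD-P19 and 3.03, 3.71 and 3.46 in P19N.

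Nop58 held Snord70 and Gm26293, both lower, and Gm26287 and Snord11, which were not called. Gm26287 was called lower in 4 alternatives, among them without UD-P19 replicate 2 (edgeR, adjusted p = 0.0155). Snord11, listed as an 18S guide, had 1682, 333 and 1387 CPM in UD-P19 and 1052, 849 and 1119 CPM in P19N, with overlapping groups. Its counts over those of Snord70 were 2.83, 3.65 and 2.98 in UD-P19 and 11.75, 10.88 and 6.52 in P19N. In Atp5b, the ratio of Mir677 to Snord59a was 0.20, 0.20 and 0.17 in UD-P19 and 0.62, 0.86 and 0.40 in P19N. It takes the snoRNA entry of Mir677 alone and leaves out the like counts of the hairpin entry, so that its height is not that of the locus. In Rpl17, the ratio of Gm23301 to Snord58b was 1.00, 1.23 and 0.99 in UD-P19 and 6.58, 9 and 3.91 in P19N. The 7 ratios were chosen after seeing that their members differed, so that they are descriptions with no test.

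Other hosts held members with like values. The 4 members in 2410002F23Rik had log2 fold changes between 0.73 and 1.13 and the 3 in Rpl23a between -0.77 and -0.59, and none of these 7 was called. Without UD-P19 replicate 2, Gm26247 of the former host was called higher and Snord42b of the latter lower (edgeR, adjusted p = 0.00523 and 0.0102). Their log2 fold changes in that fit were 1.89 and -1.05. With TMM over the members only, Gm23991 and Snord88a of the former host were called higher (edgeR, adjusted p = 0.0281 and 0.0213). In Cep295, Gm24339 had 1, 0 and 2 counts in UD-P19 and 12, 4 and 3 counts in P19N. Its fitted log2 fold change of 2.13 rests on these few counts (edgeR, adjusted p = 0.138) and sets the range of its host. Without Cep295, 13 of 31 hosts had both signs, and the median range was 0.97.

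**Figure D4:**
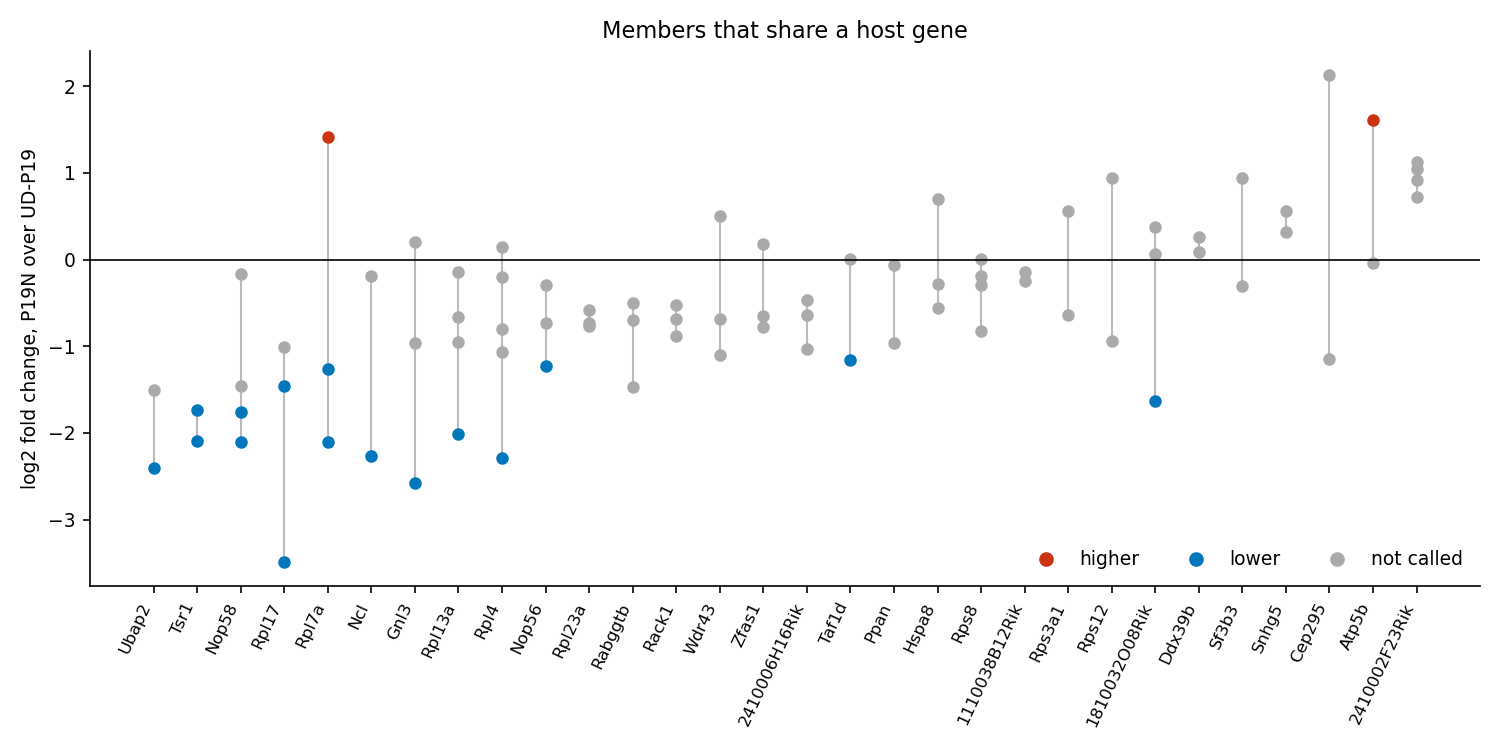
Log2 fold change (P19N over UD-P19) of the members of 30 of the 32 host genes that hold more than 1 member, those with a range of at least 0.1 on the log2 scale, ordered by the median of the host; red, called higher; blue, called lower; grey, not called; line, range within the host. Rpl7a holds called members of both directions, and Tsr1 is the host whose members were both called lower.

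**Figure D5:**
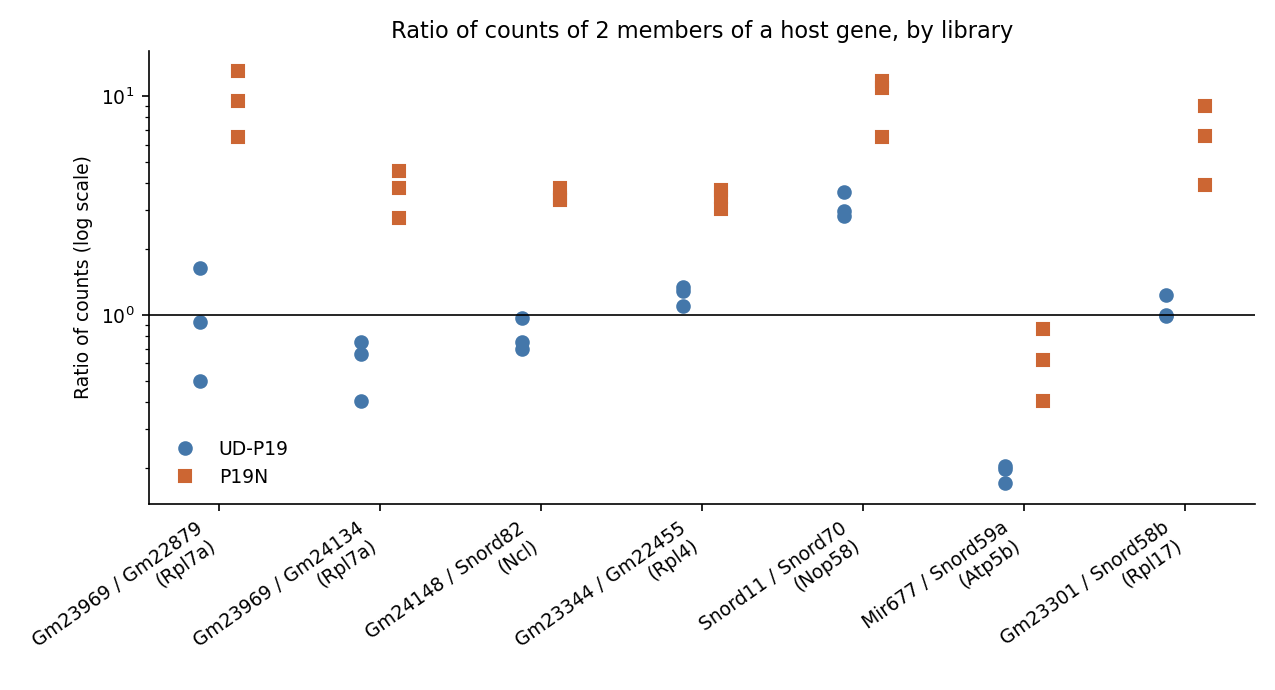
Ratio of the counts of 1 member to another of the same host gene (named in parentheses) in each library, on a log scale; circles, UD-P19 replicates 1 to 3; squares, P19N replicates 4 to 6; line, a ratio of 1. The groups do not overlap in any of the 7 ratios, which were chosen for this. For Mir677 the snoRNA entry alone was used, without the hairpin entry.

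Several members are copies or close relatives of each other, and reads of identical stretches cannot be assigned to 1 copy. Joining transcripts whose sequences matched at 90% or more of the bases, along 80% or more of the longer one, put the 126 members in 111 families, 10 of which hold more than 1 member and 25 members in all. Of these 25, 12 had no unique counts, while at the other 13 between 16.3% and 100% of the counts were unique. With counts summed per family, 4 families were higher and 17 lower (quasi-likelihood test of edgeR over 813 families), beside 9.72% and 9.1% of all families. Gm22193 of Sf3b3 has no copy in this grouping, and its own counts gave the added higher call (edgeR, log2 fold change 1.06, adjusted p = 0.0437), with 161, 163 and 166 CPM in UD-P19 and 317, 325 and 380 CPM in P19N in that fit. Over the 1286 transcripts its log2 fold change was 0.94 and it was not called (edgeR, adjusted p = 0.0952). It was called in 6 alternatives in all, with adjusted p-values (edgeR) between 0.0218 and 0.0453, so that its call depended on the scaling and on the transcripts and libraries in the fit. Snord58b and Gm22354, 94.3% identical, form 1 family with a log2 fold change of -3.25 (edgeR, adjusted p = 0.00126). Gm22354 (chr14:52069300-52069369, plus strand) lies in no gene and none of its counts was unique, so that its own value rests on reads shared with Snord58b. The largest family, Snord50a, Snord50b, Gm24463, Gm26135 and Gm23017, had a log2 fold change of 0.59 and was not called (edgeR, adjusted p = 0.206). With unique counts alone, 103 members could be tested, of which 3 were higher and 16 lower (14.3% and 10.6% of the 510 transcripts tested).

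The most counted members were not called. Snord2, listed as a 28S guide in the translation initiation factor gene Eif4a2, had 1778, 1126 and 2126 CPM in UD-P19 and 1259, 1237 and 1219 CPM in P19N (log2 fold change -0.44, edgeR, adjusted p = 0.374). Snord49b, also listed as a 28S guide, had 2092, 797 and 2002 CPM in UD-P19 and 1229, 1055 and 1251 CPM in P19N (log2 fold change -0.47, edgeR, adjusted p = 0.394). At both, UD-P19 replicate 2 lay near or below the P19N libraries and replicates 1 and 3 above them. Snord32a of Rpl13a, Gm24494 of Rabggtb and Snord61 of Rbmx had log2 fold changes of -0.15, -0.50 and 0.16 (edgeR, adjusted p = 0.815, 0.46 and 0.795). Without UD-P19 replicate 2, Snord49b and Gm24494 were called lower (edgeR, adjusted p = 0.0316 and 0.0159). These and Snord11 took 18.4% to 23.2% of the counts of the members in a library. The counts are not set per length, so that their order is not an order of levels.

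The thresholds of the rule cut a continuous range. The member with the fewest counts was Snord123 with 21, and the snoRNA with the most counts below the threshold was Gm23455 with 12. At the length limit, Snord89 and Snord8 of 110 bases were inside, and Snord90 and Snord67 of 111 bases were outside. Snord90 had 8275 counts, more than any member, and 2976, 1069 and 3245 CPM in UD-P19 and 1732, 1858 and 1848 CPM in P19N. Snord67 had 9.82, 32.0 and 8.27 CPM in UD-P19 and 54.2, 56.9 and 18.1 CPM in P19N.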

How the data were processed

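The 6 libraries were made from exosomal RNA with a small RNA kit and read in pairs. The authors trimmed adaptors, merged pairs and matched them to the GRCm38 noncoding transcripts in CLC Genomics Workbench. They deposited counts per transcript, in total and as unique and exact counts. The headers of the unique and exact counts name mature sequences, and the file does not define them. How reads that match several transcripts were counted is not given in the sources used here. The authors' columns of means, fold changes and p-values were not used. Of the 5880 transcripts, 5777 were matched by identifier to GENCODE M21.

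Transcripts with at least 15 counts in all were tested in edgeR 4.0.16 (R 4.3.3) with TMM, the quasi-likelihood F test, no covariate and Benjamini-Hochberg adjustment over 1286 transcripts. Standard errors are the log2 fold change divided by the root of F. On simulated counts of these 1286 transcripts with 200 changed by a log2 fold change of 2, 77% of the changed ones were recovered, and 6.67% of the calls were transcripts that had not been changed. Replicates are biological and the preparations independent per the study, which took medium of P19N on day 8 and every other day thereafter. Whether the P19N samples came from separate flasks is not given, so that they may not be separate cultures. The p-values weigh the difference of the groups against the spread between these samples. Families were joined with BLAST 2.17.0. Alternatives were other count filters, scalings and tests (DESeq2 1.42.0 among them), unique counts, summed copies and each library left out. Named members were the called ones with the largest changes, a mean of at least 10 counts and groups that did not overlap, the 6 most counted, the hosts with at least 5 members, guides of 5.8S and U6 ribosomal or spliceosomal RNA and of acetylation, and those at the thresholds; others were named for their host, family or shared position after their values were seen. The members, lists and tests were chosen with earlier results of these data known. Sequences are GENCODE transcripts, and those of mature microRNAs are from RefSeq. Members on chromosome 18 are given without sequence, and 1 host gene is not reported here. Tables and plots came from Python 3.11.15, pandas 2.3.3 and matplotlib 3.10.9.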

Additional observations from a re-analysis of the deposited data

How the results depend on the processing

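The medians of the members' log2 fold changes stayed negative under the 19 alternatives run, from -0.82 to -0.11. No called member changed its direction. With filterByExpr 6 members were higher and 18 lower, beside 25.1% and 12.9% of the 770 transcripts tested, and the added higher calls were Snord14a, Snord100 and Gm22193. With TMM over the members only, chosen after seeing the data, 6 were higher too. Of the members not called, 35 were called in at least 1 alternative, 28 of them lower and 3 higher without UD-P19 replicate 2. In that fit 15.6% of all transcripts tested were called lower and 25.7% higher. Calls gained in at least 1 alternative were not counted over all transcripts tested. With a library left out, between 1 and 6 members were higher and between 6 and 49 lower, the most in both directions without UD-P19 replicate 2 and the fewest lower without P19N replicate 5. The share of counts at the members, P19N minus UD-P19, was 3.26 percentage points with unique counts and -5.14 with Gm42418 left out, against -0.39 for all counts, and was between -0.87 and -0.07 with a library left out; the cause was not tested.

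Among members that were not called, 40 changed sign in at least 1 alternative other than the sum over copies, up to 17 in a single one (TMM over the members only). Of those named, Snord8 was at 0.088 with filterByExpr, 0.035 with TMMwsp, 0.17 with total counts only, 0.15 with unique counts, 0.12 with copies summed and 0.30 with TMM over the members only. In the same order Snord59a was at 0.088, 0.052, 0.20, 0.16, 0.12 and 0.30. For the last 4 of these settings Snord32a was at 0.11, 0.076, 0.024 and 0.24, and Snord11 at 0.10, 0.10, 0.041 and 0.31; Gm22571 was at 0.11 with the last. Gm24148 was at 0.077 with total counts only, 0.025 with copies summed and 0.25 with TMM over the members only. With DESeq2 size factors Snord7 was at -0.0068 and Snord16a at -0.014; without Gm42418 Snord7 was at -0.10, Snord16a at -0.055 and Snord61 at -0.054; in DESeq2 Snord16a was at -0.013. With a library left out, the ranges were -0.60 to 0.14 for Snord59a, -0.69 to 0.37 for Gm24148, -0.57 to 0.32 for Snord8, -0.57 to 0.39 for Snord7, -0.36 to 0.32 for Snord16a, -0.25 to 0.43 for Snord61, -0.61 to 0.058 for Snord32a, -0.61 to 0.23 for Snord11, -0.94 to 0.052 for Gm24494 and -1.26 to 0.44 for Snord96a.

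No paired analysis was possible because the replicate numbers 1 to 3 and 4 to 6 are not shared between the groups. At Snord7, with 24 counts, the standard error of the log2 fold change was 0.92, and the part of depth was not tested.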

Other observations

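The deposited exact counts, headed "Exact mature 5", were a median of 76.7% of the counts of a member. They were read as reads that match a transcript without a mismatch, but the class is not defined. A low share thus need not mean reads with mismatches. At 5 members the share was below 20%: 2.26% at Snord91a, 3.72% at Snord104, 7.44% at Snord61, 9.23% at Snord8 and 15.03% at Gm23136. At 8 more, among them Gm24494 with 36.8% and Snord37 with 38.0%, it was between 20% and 50%. The reading of the column was not checked, and the ends of the annotated sequences of these members were not compared with reads, which were not analysed here.

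None of the counts was unique at 23 members. Their median log2 fold change was 0.19, with 1 higher (Mir677) and 2 lower (Gm22354 and Snord60), the latter 8.7%. That of the 89 members with unique counts only was -0.64, with 2 higher and 18 lower (20.2%). Over all transcripts tested, 15% were called higher and 9.02% lower. This split was counted with all libraries only and was not tested.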
